A study of Mus musculus with 18 samples.

Results

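The 9 genes described here make or regulate peptide presentation on major histocompatibility complex (MHC) class I, or belong to the interferon response: Psmb8, Psmb9, Psmb10, Tap1, Tapbp, B2m, Irgm2, Ifitm2 and Ifitm3. They were picked by name from the gene list of the arrays, with earlier results of these data known. All 9 were among the 16077 genes tested. Irgm2 was listed in the deposited data under its older symbol Iigp2. AB2.2 and PL2F8, both lines of mouse embryonic stem (ES) cells, were sampled at days 0, 2, 4, 6 and 8 after removal of LIF, the cytokine that holds mouse ES cells in the undifferentiated state. Total RNA was hybridized to Illumina bead arrays, with 2 arrays for each line at days 0, 2, 4 and 6 and 1 array for each line at day 8, 18 arrays in all. Both lines went through the same LIF removal and differ in the labels by name alone, with no allele, clone or agent given. Whether the arrays of a group stem from separate cultures is not stated in the labels, and p-values therefore cover the spread among these arrays alone, possibly only technical spread.

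All 7 ES cell markers (Pou5f1, Nanog, Sox2, Zfp42, Esrrb, Klf4 and Tdgf1) were detected on every array except that of PL2F8 at day 8, which detected 5. Their summed signal went from between 22700 and 23000 at day 0 to between 5000 and 5200 at day 6 in AB2.2, and from 27000 to between 9310 and 9450 in PL2F8. In such bulk samples fewer cells of a type and less RNA per cell cannot be told apart. Mean signal lay between 283.6 and 492.7 on 15 arrays, with 41.9% to 45% of probes detected. The PL2F8 arrays of day 6 were dimmer (137.4 and 134.8, with 40% and 37.8% detected), and the PL2F8 array of day 8 was the dimmest (60.14, with 20.9% detected). On that array the lowest detected level was 6.89 on the log2 scale, against 4.68 to 5.02 elsewhere. Levels below are log2 normalized signals, and changes are log2 differences ± the standard error of 1 linear model (limma) fitted to all arrays. A gene was called at an adjusted p below 0.05 (Benjamini-Hochberg over all genes tested). In the main analysis all arrays were given the same distribution of signals. Where the arrays were instead given the same median, the median change of all genes in PL2F8 became -0.24 at day 4, -1.08 at day 6 and -2.04 at day 8, so each direction in PL2F8 that turned under this median scaling is named beside its value.

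The proteasome cuts cytosolic proteins into peptides. In cells exposed to interferon, Psmb8, Psmb9 and Psmb10 take the places of the constitutive catalytic subunits Psmb5, Psmb6 and Psmb7 and form the immunoproteasome, whose peptides are carried into the endoplasmic reticulum by Tap1 with Tap2, loaded with the help of Tapbp (tapasin), and shown at the cell surface by heavy chains bound to B2m (beta-2 microglobulin). Irgm2 is an interferon-inducible GTPase of the defence against intracellular microbes, and Ifitm2 and Ifitm3 are membrane proteins that restrict virus entry. Ifitm3 (fragilis) is also known from mouse pluripotent and primordial germ cells. Interferon signals reach genes through the interferon-stimulated response element (ISRE), bound by IRF factors, and through the gamma-activated site (GAS).

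The RefSeq promoter windows (250 bases before to 50 bases after the annotated start, build GRCm38.p6) of all 9 genes were searched on both strands for the ISRE core (GAAA, any 2 bases, GAAA) and the GAS core TTCNNNGAA. An ISRE match stood in the windows of B2m, Irgm2, Ifitm2 and Ifitm3, and a GAS match in those of Psmb8, Irgm2 and Ifitm3. Of 32851 promoter windows in the same table, 3.44% held the ISRE core and 8.3% the GAS core. No match to these letters stood in the windows of Psmb9, Psmb10, Tap1 or Tapbp. A match describes letters and does not show that a factor binds there. The windows below are shown because they set the genes that rose beside the Ifitm genes that fell in AB2.2. Capitals mark the matches, each line is written 5′ to 3′ on the strand of the gene, and the positions are chr17:34197945-34198244 (plus strand) for Psmb8, chr17:34187306-34187605 (plus strand) for Tap1, chr2:122147437-122147736 (plus strand) for B2m, chr11:58214727-58215026 (plus strand) for Irgm2, chr7:140955912-140956211 (minus strand) for Ifitm2 and chr7:141010695-141010994 (minus strand) for Ifitm3.
Psmb8: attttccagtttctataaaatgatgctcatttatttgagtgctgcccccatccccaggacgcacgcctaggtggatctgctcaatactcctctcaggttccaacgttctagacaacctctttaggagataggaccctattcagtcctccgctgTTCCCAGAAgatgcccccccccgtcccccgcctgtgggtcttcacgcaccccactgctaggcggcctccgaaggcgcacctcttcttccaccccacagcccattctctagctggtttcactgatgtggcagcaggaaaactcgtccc
Tap1: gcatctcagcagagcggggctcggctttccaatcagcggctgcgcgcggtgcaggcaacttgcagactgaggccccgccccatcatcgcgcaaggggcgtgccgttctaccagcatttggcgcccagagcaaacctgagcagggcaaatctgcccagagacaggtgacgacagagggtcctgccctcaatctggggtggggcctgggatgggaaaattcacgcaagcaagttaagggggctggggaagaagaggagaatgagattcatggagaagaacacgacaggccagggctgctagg
B2m: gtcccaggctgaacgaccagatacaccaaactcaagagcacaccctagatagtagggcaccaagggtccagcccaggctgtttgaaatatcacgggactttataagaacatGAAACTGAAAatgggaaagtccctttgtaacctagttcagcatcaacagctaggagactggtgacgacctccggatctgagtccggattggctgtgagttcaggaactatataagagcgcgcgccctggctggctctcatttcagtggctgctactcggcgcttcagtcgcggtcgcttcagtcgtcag
Irgm2: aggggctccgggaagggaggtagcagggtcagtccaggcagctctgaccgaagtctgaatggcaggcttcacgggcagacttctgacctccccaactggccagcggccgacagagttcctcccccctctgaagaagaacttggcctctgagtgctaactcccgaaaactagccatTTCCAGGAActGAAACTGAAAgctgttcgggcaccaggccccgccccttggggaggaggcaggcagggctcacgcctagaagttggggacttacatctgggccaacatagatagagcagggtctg
Ifitm2: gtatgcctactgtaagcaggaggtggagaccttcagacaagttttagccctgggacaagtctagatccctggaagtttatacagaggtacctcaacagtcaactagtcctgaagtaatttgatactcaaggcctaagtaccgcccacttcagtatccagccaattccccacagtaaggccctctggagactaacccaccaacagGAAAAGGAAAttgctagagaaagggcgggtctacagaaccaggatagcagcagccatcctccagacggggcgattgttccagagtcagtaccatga
Ifitm3: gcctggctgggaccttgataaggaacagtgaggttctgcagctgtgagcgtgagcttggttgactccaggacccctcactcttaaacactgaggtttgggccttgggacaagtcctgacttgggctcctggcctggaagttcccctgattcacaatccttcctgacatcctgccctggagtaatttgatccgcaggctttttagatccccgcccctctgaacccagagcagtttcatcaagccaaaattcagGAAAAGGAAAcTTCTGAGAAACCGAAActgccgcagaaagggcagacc
Counted from the annotated start, with negative numbers before it, the GAS match of Psmb8 ran from base -97 to -89. The ISRE match of B2m ran from -139 to -130, and that of Ifitm2 from -46 to -37. In Irgm2 the GAS match ran from -75 to -67 and the ISRE match from -64 to -55. In Ifitm3 the ISRE matches ran from 3 to 12 and from 20 to 29, and the GAS match from 14 to 22 overlapped the latter. Tap1 and Psmb9 are read in opposite directions from starts 225 bases apart, so the Tap1 window shares 275 bases with that of Psmb9. The Ifitm2 window belongs to a start 3725 bases inside the annotated gene, whereas the other windows lie at the outer end of theirs.

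Between days 0 and 4 the antigen processing genes rose in AB2.2 while both Ifitm genes fell. Of the 9 genes, 7 rose and 2 fell at day 2 in AB2.2, where 34.8% of all genes tested were called. At day 4, 7 rose and 2 fell again (51% of all genes called, 27.5% higher and 23.6% lower). At day 6, 6 rose and 2 fell (55% of all genes called), and at day 8, 2 rose and 4 fell (48.5% of all genes called). In PL2F8, 6 rose and 1 fell at day 2 (36.5% of all genes called), 4 rose and 1 fell at day 4 (51.1%), 3 rose and 4 fell at day 6 (66.2%), and 3 rose and 3 fell at day 8 (72.8%). Of the 3 that fell at day 8, Tapbp and Irgm2 were not detected on the array of that day. Under median scaling 4 rose and 1 fell at day 2 in PL2F8, 3 rose and 5 fell at day 4, 1 rose and 7 fell at day 6, and none rose and 7 fell at day 8. Without the second day 0 array of PL2F8, 3 genes in place of 5 were called at day 4. The 4 comparisons of each line share its 2 day 0 arrays. Of all genes, median scaling moved the split of calls as well. In PL2F8 17.5% higher and 19% lower became 11.1% and 29.7% at day 2, 26.4% higher and 24.7% lower became 14% and 45.4% at day 4, 31.1% higher and 35.1% lower became 6.68% and 69.9% at day 6, and 31.7% higher and 41.1% lower became 0.958% and 74.6% at day 8. In AB2.2 17.5% higher and 17.3% lower became 13.7% and 21.3% at day 2, 28.5% higher and 26.6% lower became 40% and 17.2% at day 6, and 24.2% higher and 24.3% lower became 30.7% and 17.6% at day 8. The median change of the 6 antigen processing genes was 0.95 at day 2, 1.02 at day 4 and 0.93 at day 6 in AB2.2, beside all-gene medians of 0, 0.03 and 0. In PL2F8 it was 0.48, 0.45 and 0.48 beside all-gene medians of 0, 0.02 and -0.03, and under median scaling it became 0.35, 0.02 and -0.83.

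**Figure D1:**
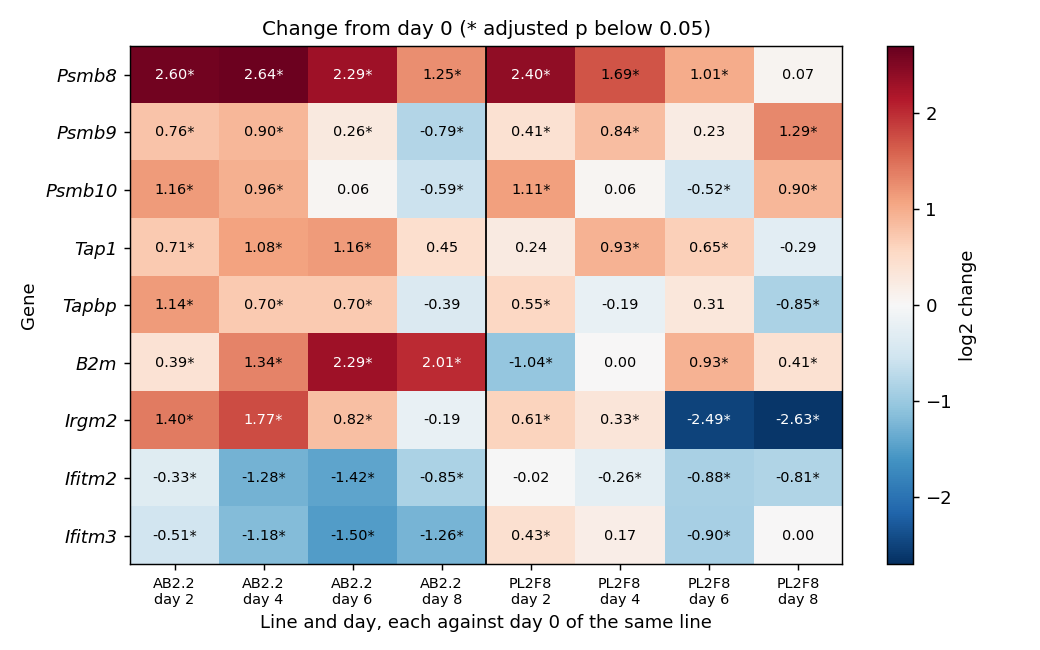
Log2 change from day 0 of the same line for the 9 genes (rows) at days 2 to 8 (columns, AB2.2 left, PL2F8 right); an asterisk marks an adjusted p below 0.05. In AB2.2 Psmb8 reached 2.64 and Ifitm3 reached -1.50. The PL2F8 columns of days 4 to 8 include values that change sign under median scaling. Among them are B2m at day 6 (0.93, then -1.08) and Psmb9 at day 8 (1.29, then -2.18). In PL2F8 Psmb8 at days 0 and 8, Irgm2 at days 6 and 8 and Tap1 and Tapbp at day 8 were not detected.

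Psmb8 (chr17:34198195-34201454), the inducible chymotrypsin-like subunit, changed more than any other of the 9 genes at days 2 and 4 in AB2.2. In AB2.2 it measured 5.13 and 5.34 at day 0, 7.84 and 7.83 at day 2, 7.88 and 7.87 at day 4, 7.52 and 7.54 at day 6, and 6.48 at day 8. Every later AB2.2 array lay above both day 0 arrays. The change was 2.60 ± 0.08 at day 2 (adjusted p = 4e-10), a fold of 6.08, and still 1.25 ± 0.10 at day 8 (adjusted p = 3.9e-07). The PL2F8 arrays measured it at 4.48 and 4.49 at day 0, 6.94 and 6.83 at day 2, 6.22 and 6.13 at day 4, 5.51 and 5.47 at day 6, and 4.56 at day 8. The day 0 and day 8 arrays of PL2F8 did not detect it. In the main analysis Psmb8 was therefore at least 4.49-fold higher than at day 0 at day 2 and at least 2.75-fold at day 4. At day 6 it was at least 1.71-fold higher (adjusted p = 7.4e-10, 6.4e-09 and 2e-07 at days 2, 4 and 6). The floor is the lowest detected level of the day 0 arrays. Under median scaling its modelled change at day 6 in PL2F8 was 0.45 in place of 1.01. That lies below the day 6 bound, which holds for the main analysis alone. A second, dimmer Psmb8 probe, detected on 7 arrays, rose by 0.65 ± 0.15 at day 2, 0.99 ± 0.15 at day 4 and 1.17 ± 0.15 at day 6 in AB2.2, and in PL2F8 it was called at day 4 alone (0.44 ± 0.15).

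Psmb9 (chr17:34182030-34187330), the inducible subunit that takes the place of Psmb6, rose at days 2 and 4 in both lines and by less than Psmb8. It measured 6.83 and 7.03 at day 0 in AB2.2, then 7.69 and 7.68, 7.71 and 7.95, 7.07 and 7.31, and 6.14 at day 8. The AB2.2 arrays of days 2 and 4 lay above every day 0 array, and the day 8 array lay below them. Its change was 0.76 ± 0.10 at day 2 (adjusted p = 1e-04) and 0.90 ± 0.10 at day 4 (adjusted p = 1e-05). At day 6 it was 0.26 ± 0.10 with an adjusted p of 0.049, a call that was lost when any of several single arrays was left out, such as AB2.2 day 6 replicate 2 (0.14, adjusted p = 0.36). At day 8 it fell by 0.79 ± 0.13 (adjusted p = 0.00019). In PL2F8 it measured 6.85 and 6.77 at day 0, 7.21 and 7.23 at day 2, 7.62 and 7.68 at day 4, 7.03 and 7.05 at day 6, and 8.10 at day 8. Its changes there were 0.41 ± 0.10 at day 2 (adjusted p = 0.0081) and 0.84 ± 0.10 at day 4 (adjusted p = 2.2e-05). The day 2 call in PL2F8 was lost under median scaling (0.23) and without the second day 0 array (0.37). The value of 1.29 at day 8 became -2.18 under median scaling.

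Psmb10 (chr8:105935728-105938392), the inducible trypsin-like subunit, rose at day 2 in both lines. In AB2.2 it measured 9.13 and 9.23 at day 0, 10.34 and 10.35 at day 2, 10.18 and 10.09 at day 4, 9.15 and 9.33 at day 6, and 8.59 at day 8. Days 2 and 4 stood clear of day 0, and day 6 overlapped it. The PL2F8 arrays measured it at 8.90 and 8.65 at day 0, 9.83 and 9.93 at day 2, 8.95 and 8.72 at day 4, 8.22 and 8.28 at day 6, and 9.68 at day 8. There, day 4 overlapped day 0 already. The change at day 2 was 1.16 ± 0.11 in AB2.2 (adjusted p = 3.2e-06) and 1.11 ± 0.11 in PL2F8 (adjusted p = 4.9e-06). At day 4 it was 0.96 ± 0.11 in AB2.2 (adjusted p = 7.7e-06) and 0.06 ± 0.11 in PL2F8 (adjusted p = 0.67), where median scaling gave -0.46. The value of 0.90 at day 8 in PL2F8 became -3.31 under median scaling, and the value of -0.52 ± 0.11 at day 6 became -2.45.

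**Figure D2:**
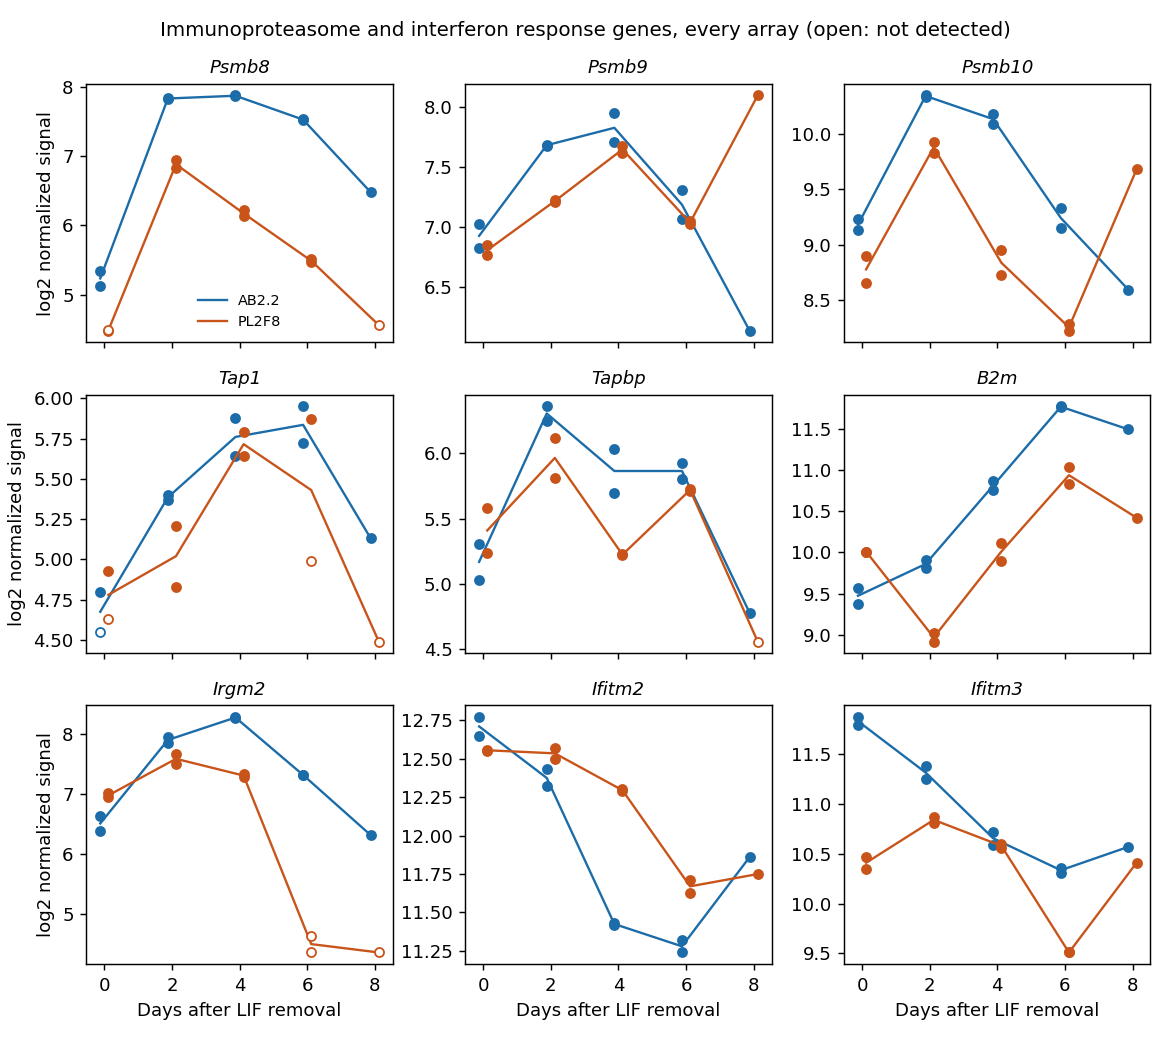
Log2 normalized signal (vertical axis, its own range for each gene) of the 9 genes on every array against days after LIF removal, with AB2.2 in blue, PL2F8 in orange, lines through group means and open points where the gene was not detected. Psmb8, Psmb9, Psmb10, Tapbp and Irgm2 stand above day 0 at day 2 in both lines, and Ifitm2 and Ifitm3 descend in AB2.2; the PL2F8 levels of days 6 and 8 rest on dim arrays.

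Of the constitutive counterparts Psmb5, Psmb6 and Psmb7, none rose at any day up to day 6 in either line. None of the 3 was called at days 2 and 4 in AB2.2 or at day 2 in PL2F8, beside 34.8%, 51% and 36.5% of all genes. At day 4 in PL2F8, Psmb6 (-0.49 ± 0.09, adjusted p = 0.00046) and Psmb7 (-0.41 ± 0.09, adjusted p = 0.0019) fell, and all 3 fell under median scaling. At day 6 in PL2F8, Psmb5 (-0.43 ± 0.11) and Psmb7 (-0.62 ± 0.09) fell. At day 2 in AB2.2 their changes were 0 ± 0.11, -0.07 ± 0.09 and -0.09 ± 0.09, beside 2.60, 0.76 and 1.16 for Psmb8, Psmb9 and Psmb10. At day 6, Psmb5 and Psmb6 fell in AB2.2 by 0.48 ± 0.11 and 0.34 ± 0.09 (adjusted p = 0.003 and 0.0054), and neither was called under median scaling (0 of 3). Among 8 measured other subunits of the 20S core, 1 rose and 2 fell at day 2 in AB2.2, and none rose and 6 fell at day 6, beside 28.5% of all genes higher and 26.6% lower. Psmb3 fell by 0.50 ± 0.08 and Psma2 by 0.41 ± 0.08 at day 6. Of 4 assembly factors, 3 fell at day 6 in AB2.2, with Psmg1 at -1.01 ± 0.07. Under median scaling 3 of the 8 core subunits and 1 of the 4 assembly factors fell. Psme1, a subunit of the interferon-inducible PA28 activator, rose by 0.82 ± 0.07 at day 2, 1.45 ± 0.07 at day 4 and 1.32 ± 0.07 at day 6 in AB2.2, whereas its partner Psme2 rose by 0.42 ± 0.10 at day 2 and was at -0.17 ± 0.10 at day 6 (adjusted p = 0.18).

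**Figure D3:**
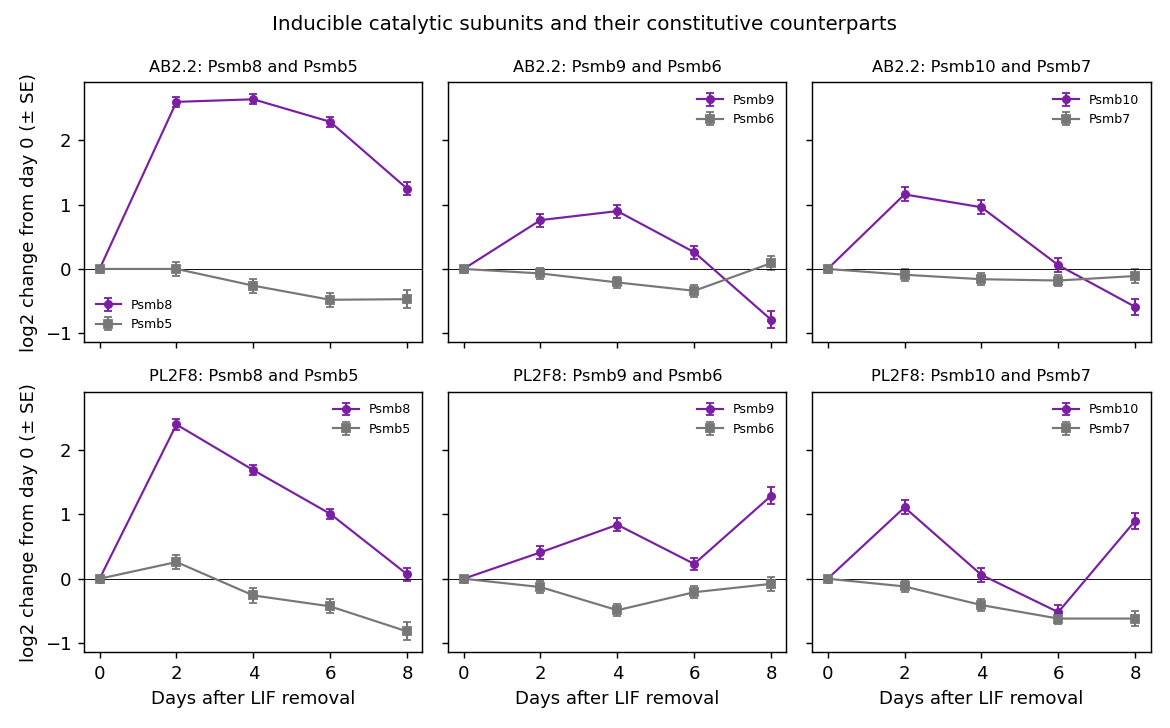
Log2 change from day 0 (± standard error, day 0 set to 0) of each inducible catalytic subunit (purple circles) and its constitutive counterpart (grey squares) against days after LIF removal, AB2.2 above and PL2F8 below. At day 2 in AB2.2 Psmb8 stands at 2.60 and Psmb5 at 0; in PL2F8 the values of Psmb9 and Psmb10 at day 8 (1.29 and 0.90) change sign under median scaling.

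Tap1 (chr17:34187556-34197225), a subunit of the peptide transporter, was dim. In AB2.2 it measured 4.80 and 4.55 at day 0, 5.40 and 5.37 at day 2, 5.64 and 5.88 at day 4, 5.72 and 5.95 at day 6, and 5.13 at day 8. All later AB2.2 arrays stood above both day 0 arrays, of which the second did not detect the gene. Its change was 0.71 ± 0.23 at day 2 (adjusted p = 0.032), 1.08 ± 0.23 at day 4 (adjusted p = 0.0016) and 1.16 ± 0.23 at day 6 (adjusted p = 0.0009), and the day 2 call was lost when either array of AB2.2 at day 0 or day 2 was left out. In PL2F8 it measured 4.63 and 4.93 at day 0, 4.83 and 5.21 at day 2, 5.79 and 5.64 at day 4, 5.87 and 4.99 at day 6, and 4.49 at day 8. Day 2 overlapped day 0, and the first day 0, second day 6 and day 8 arrays did not detect it. The change in PL2F8 was 0.93 ± 0.23 at day 4 (adjusted p = 0.0046) and 0.65 ± 0.23 at day 6 (adjusted p = 0.025). The day 6 value was 0.50 without the first day 0 array, 0.21 without the first day 6 array and 0.08 under median scaling, and it was called in none of these.

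Tapbp (chr17:33919478-33929290), which holds the transporter and the heavy chain together, rose at day 2 in both lines. It measured 5.03 and 5.31 at day 0 in AB2.2, 6.36 and 6.25 at day 2, 5.70 and 6.03 at day 4, 5.93 and 5.80 at day 6, and 4.78 at day 8. The PL2F8 arrays measured it at 5.24 and 5.58, 5.81 and 6.12, 5.22 and 5.23, and 5.73 and 5.71 at days 0, 2, 4 and 6, and the day 8 array did not detect it (4.56). Day 2 stood above day 0 on every array of both lines. The change at day 2 was 1.14 ± 0.15 in AB2.2 and 0.55 ± 0.15 in PL2F8 (adjusted p = 0.01), and the PL2F8 call was lost without the first day 0 array (0.38) or the second day 2 array (0.40), and when all kept probes were averaged (0.34). A second Tapbp probe had no called change at day 2 in AB2.2 (0.18 ± 0.17) or PL2F8 (0.13 ± 0.17), nor at day 4 (0.33 ± 0.17) or day 6 (0.23 ± 0.17) in AB2.2. At day 4 the change was 0.70 ± 0.15 in AB2.2 and -0.19 ± 0.15 in PL2F8 (adjusted p = 0.32). The PL2F8 value at day 6 was 0.31 ± 0.15 (adjusted p = 0.082) and -0.57 under median scaling, and at day 8 the lowest detected level (6.89) lay above every Tapbp level of day 0, so no change can be read there. Tap2, the partner of Tap1 in the transporter, rose by 1.26 ± 0.16 at day 2 and 1.57 ± 0.16 at day 6 in AB2.2 and by 0.77 ± 0.16 at day 2 in PL2F8. Of 7 measured peptide loading genes, 4 rose and none fell at each of days 2, 4 and 6 in AB2.2, beside 17.5%, 27.5% and 28.5% of all genes higher, and under median scaling 2 rose and 1 fell at day 2. At day 6 Pdia3, a thiol oxidoreductase of the loading complex, rose by 0.69 ± 0.07 and Lnpep, a peptide-trimming aminopeptidase, by 0.69 ± 0.08. At day 6 in PL2F8, 4 of the 7 rose and none fell, beside 31.1% of all genes higher and 35.1% lower. Under median scaling none rose and 4 fell, beside 6.68% and 69.9%.

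B2m (chr2:122147687-122153082), the light chain of MHC class I, took another course in each line. In AB2.2 it measured 9.57 and 9.38 at day 0, 9.91 and 9.81 at day 2, 10.76 and 10.86 at day 4, 11.76 and 11.77 at day 6, and 11.49 at day 8. The AB2.2 arrays of each day up to day 6 stood above all those of the day before it. In PL2F8 it measured 10.01 on both day 0 arrays, 8.92 and 9.02 at day 2, 10.12 and 9.90 at day 4, 11.04 and 10.83 at day 6, and 10.42 at day 8. In the main analysis both PL2F8 arrays of day 2 lay below every other PL2F8 array, whereas those of AB2.2 lay above its day 0. Under median scaling PL2F8 was lower at day 8 than at day 2 (changes from day 0 of -3.86 and -1.26). The change in AB2.2 was 0.39 ± 0.10 at day 2 (adjusted p = 0.0096), 1.34 ± 0.10 at day 4 and 2.29 ± 0.10 at day 6 (adjusted p = 1.6e-09), and in PL2F8 it was -1.04 ± 0.10 at day 2 (adjusted p = 5.7e-06). The PL2F8 values of 0.93 ± 0.10 at day 6 and 0.41 ± 0.12 at day 8 became -1.08 and -3.86 under median scaling, and that of day 4 (0 ± 0.10) became -0.54. A second B2m probe gave 0.25 ± 0.09 (adjusted p = 0.061), 1.23 ± 0.09 and 2.13 ± 0.09 at days 2, 4 and 6 in AB2.2 and -1.09 ± 0.09 at day 2 in PL2F8. The day 2 call in AB2.2 was also lost under median scaling (0.25) and without the second day 0 array (0.29) or the first day 2 array (0.34). The remaining B2m probe was detected on no array.

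The heavy chains that pair with B2m were read from the authors' matrix, because the lines of most of them could not be read in the probe table; this was decided after the files were seen. The matrix carries no background correction, which shrinks changes of dim genes, and some heavy chains are near-identical, so their signals may be shared. Of 18 heavy chain genes in the matrix, 8 rose and none fell at day 2 in AB2.2, where 9.55% of all 28824 genes in the matrix were higher and 9.43% lower. At day 4, 7 rose and 1 fell in AB2.2 (15% of all genes higher, 13.5% lower), and at day 6, 7 rose and 2 fell (15.6% and 15.2%). In PL2F8, 2 rose and 1 fell at day 2 (9.62% and 10.2%), 5 rose and 1 fell at day 4 (14.2% and 13.8%), and 7 rose and 3 fell at day 6 (19% and 19.9%). These matrix directions were not tested under median scaling. Only 4 heavy chains were measured among the genes tested from probes. Under median scaling none of them rose in PL2F8, while 2 fell at day 4 and 4 fell at day 6. Among them, H2-K2 turned from 1.54 to -0.47 at day 6, and in AB2.2 it rose by 0.79 ± 0.09. Cd1d1 was lower at day 6 in AB2.2 (-1.05 ± 0.22, adjusted p = 0.0014) and PL2F8 (-1.27 ± 0.22, adjusted p = 0.00024). At day 6 Mr1 was called in neither line (-0.23 ± 0.17 and -0.21 ± 0.17). H2-Q6 was at 0.13 ± 0.14 in AB2.2 and -0.52 ± 0.14 in PL2F8. The heavy chains named below from the matrix were chosen after their values were seen. The median change of the 18 in the matrix was 0.14 in AB2.2 and 0 in PL2F8 at day 2, where the median of all genes was 0 in each. H2-D1, a classical heavy chain, had matrix signals of 131.0 and 142.9 at day 0, 234.4 and 267.2 at day 2, 252.4 and 253.9 at day 4, 217.4 and 215.5 at day 6, and 194.8 at day 8 in AB2.2. In PL2F8 it had 212.0 and 228.6 at day 0, 212.4 and 205.7 at day 2, 239.8 and 255.5 at day 4, 266.1 and 271.8 at day 6, and 189.8 at day 8. Every later AB2.2 array lay above day 0, while PL2F8 overlapped its day 0 at day 2, lay above it at days 4 and 6 and below it at day 8. Whether this PL2F8 course of H2-D1 holds under median scaling was not tested. The change of H2-D1 at day 2 was 0.87 ± 0.07 in AB2.2 (adjusted p = 1.1e-07) and -0.07 ± 0.07 in PL2F8 (adjusted p = 0.61), and the difference between the lines in this change was -0.94 ± 0.10 (PL2F8 minus AB2.2, adjusted p = 2.5e-05). H2-K1, the other classical heavy chain shown, changed by 0.37 ± 0.09 at day 2 and 0.60 ± 0.09 at day 4 in AB2.2 (adjusted p = 0.0045 and 2.3e-05), and by 0.07 ± 0.09 and 0.22 ± 0.09 in PL2F8 (adjusted p = 0.70 and 0.063). H2-T23, a nonclassical heavy chain, rose by 0.42 ± 0.07 at day 2 in AB2.2, and in PL2F8 it was at -0.05 ± 0.07 at day 2 and 1.34 ± 0.07 at day 6, on the dim arrays. The class II gene H2-Ab1 had matrix signals of 65.7 and 65.03 at day 0 and 133.9 and 150.0 at day 6 in AB2.2 (1.10 ± 0.07, adjusted p = 6.4e-10). It is 1 of 7 markers listed for class II antigen presenting cells, of which Cd80 and Cd74 were among the genes tested. Their summed signal fell in AB2.2 from between 69 and 75.6 at day 0 to between 28.8 and 30.7 at day 6. In PL2F8 it went from between 210 and 229 to between 113 and 127, the latter on the dim arrays.

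**Figure D4:**
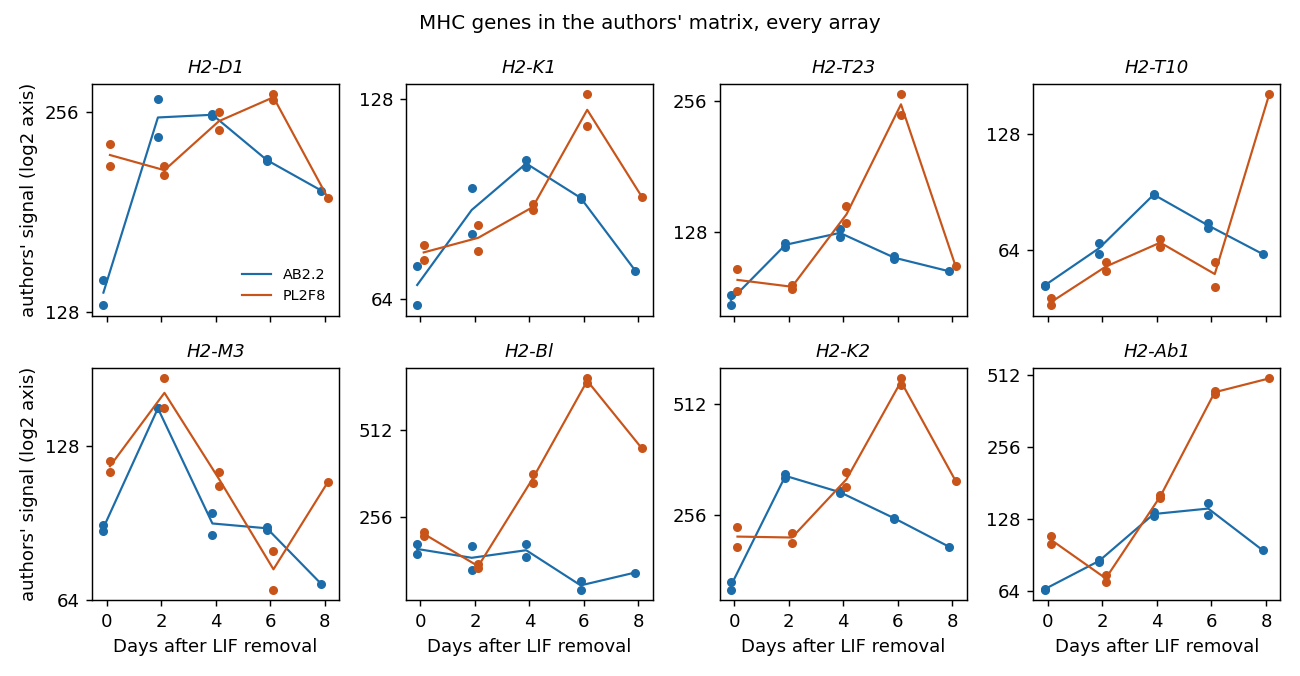
Signal in the authors' matrix (log2 axis, its own range for each gene) of 7 MHC class I heavy chain genes and the class II gene H2-Ab1 on every array against days after LIF removal, AB2.2 in blue and PL2F8 in orange, with lines through group means; the genes plotted were chosen after their values were seen. In AB2.2 H2-D1 goes from 131.0 and 142.9 at day 0 to 234.4 and 267.2 at day 2, while in PL2F8 it stays between 205.7 and 228.6 over those days.

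Irgm2 (chr11:58214977-58222783) rose at day 2 in both lines. In AB2.2 it measured 6.38 and 6.63 at day 0, 7.95 and 7.85 at day 2, 8.28 and 8.27 at day 4, 7.32 and 7.31 at day 6, and 6.31 at day 8. Days 2, 4 and 6 stood above day 0 on every array, and day 8 lay just below it. The PL2F8 arrays measured it at 7.01 and 6.94 at day 0, 7.67 and 7.50 at day 2, and 7.28 and 7.33 at day 4, and none of the later arrays detected it (4.36, 4.62 and 4.35). The change in AB2.2 was 1.40 ± 0.10 at day 2 and 1.77 ± 0.10 at day 4 (adjusted p = 6.2e-07 and 3e-08), and in PL2F8 it was 0.61 ± 0.10 at day 2 (adjusted p = 0.00058). The PL2F8 value at day 4, 0.33 ± 0.10 (adjusted p = 0.018), became -0.11 under median scaling, and the call was lost without the second array of day 0 or of day 4 (0.30 each). At day 6 in PL2F8 Irgm2 was at least 4.06-fold lower than at day 0 (adjusted p = 7.3e-10), on arrays whose own lowest detected levels were 4.89 and 5.02. Some other GTPases of the interferon response rose in the same interval, and others did not. Of 7 measured, 4 rose and 1 fell at day 2 in AB2.2 and 3 rose and none fell at day 2 in PL2F8, beside 17.5% of all genes higher in each line, with 17.3% lower in AB2.2 and 19% lower in PL2F8. Igtp rose by 1.79 ± 0.10 in AB2.2 and 1.68 ± 0.10 in PL2F8, and Gbp2 by 1.22 ± 0.13 and 2.03 ± 0.13, all at day 2. At day 6, 4 of the 7 rose and 1 fell in AB2.2, with a median change of 1.08, and 4 rose and none fell in PL2F8, where median scaling gave 1 higher and 4 lower. Of all genes at day 6, 28.5% were higher and 26.6% lower in AB2.2. In PL2F8 31.1% were higher and 35.1% lower, and 6.68% and 69.9% under median scaling.

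Ifitm2 (chr7:140954837-140959686) fell in AB2.2 from day 2 on. It measured 12.77 and 12.65 at day 0, 12.43 and 12.32 at day 2, 11.42 and 11.43 at day 4, 11.24 and 11.32 at day 6, and 11.86 at day 8. Every later AB2.2 array lay below both day 0 arrays. In PL2F8 it measured 12.55 and 12.56 at day 0, 12.57 and 12.50 at day 2, 12.29 and 12.30 at day 4, 11.71 and 11.63 at day 6, and 11.75 at day 8. PL2F8 overlapped its day 0 at day 2 and lay below it from day 4. The change was -0.33 ± 0.07 at day 2 and -1.28 ± 0.07 at day 4 in AB2.2 (adjusted p = 0.004 and 2.7e-08), and -0.02 ± 0.07 and -0.26 ± 0.07 in PL2F8 (adjusted p = 0.91 and 0.012). The PL2F8 call at day 4 was lost without the second day 0 array (-0.25, adjusted p = 0.057) and without the first day 4 array (-0.25, adjusted p = 0.054), and under median scaling the value was -0.73 (adjusted p = 2.1e-05).

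Ifitm3 (chr7:141009590-141010744) started apart in the lines. It measured 11.79 and 11.87 at day 0 in AB2.2, 11.38 and 11.25 at day 2, 10.59 and 10.72 at day 4, 10.31 and 10.36 at day 6, and 10.57 at day 8. The PL2F8 arrays measured it at 10.47 and 10.35 at day 0, 10.81 and 10.87 at day 2, 10.60 and 10.56 at day 4, 9.51 on both day 6 arrays, and 10.41 at day 8. AB2.2 left its high day 0 level at once, while PL2F8 stood above its lower day 0 level at days 2 and 4. The change in AB2.2 was -0.51 ± 0.08 at day 2, -1.18 ± 0.08 at day 4 and -1.50 ± 0.08 at day 6 (adjusted p = 0.00028, 9.7e-08 and 8.4e-09). In PL2F8 it was 0.43 ± 0.08 at day 2 (adjusted p = 0.001), which was 0.27 with an adjusted p of 0.071 under median scaling, and 0.17 ± 0.08 at day 4 (adjusted p = 0.091), which became -0.39. Ifitm1, a further member of the family, was at -0.11 ± 0.07 at day 2 (adjusted p = 0.28) and fell by 1.08 ± 0.07 at day 4 in AB2.2, but in PL2F8 it rose by 0.67 ± 0.07 at day 2 and 1.02 ± 0.07 at day 4. Ifitm5, the other measured member of the family, rose by 0.59 ± 0.13 at day 2 in AB2.2 (adjusted p = 0.0036) and was at 0.07 ± 0.13 at day 4 (adjusted p = 0.70). In PL2F8 no day 0 array detected Ifitm5, and it was at least 3.1-fold higher at day 2 and at least 2.67-fold higher at day 4.

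The order of the 10 group means, given for the main analysis, differed between genes. Psmb8 was highest in AB2.2 at days 4 and 2 (7.88 and 7.84, adjusted p = 0.74 between them). Then came AB2.2 at day 6, PL2F8 at day 2, AB2.2 at day 8, PL2F8 at days 4 and 6 and AB2.2 at day 0, with each neighbour apart at an adjusted p of 0.019 or less. Under median scaling PL2F8 at day 6 came below AB2.2 at day 0. The change in PL2F8 at day 6 was then 0.45, and PL2F8 minus AB2.2 at day 0 was -0.76. PL2F8 at days 0 and 8 did not detect Psmb8 and has no place in this order. B2m was highest in AB2.2 at days 6 and 8 (11.77 and 11.49, adjusted p = 0.16) and lowest in PL2F8 at day 2 (8.97). Under median scaling PL2F8 at day 8 lay below PL2F8 at day 2 (changes from day 0 of -3.86 and -1.26). For Tap1 no pair of neighbours in the order differed, with the lowest adjusted p at 0.33. Ifitm3 was highest in AB2.2 at day 0 (11.83), ahead of AB2.2 at day 2 (11.32, adjusted p = 0.00028), and lowest in PL2F8 at day 6 (9.51), with no neighbours apart between PL2F8 at day 2 (10.84) and AB2.2 at day 6 (10.34). For Ifitm3, median scaling put PL2F8 at day 8 below PL2F8 at day 6 (changes from day 0 of -4.27 and -2.94). Across the 10 group means, which share arrays and scaling and include groups that did not detect a gene, Psmb8 correlated at 0.75 with Tap1, 0.714 with Irgm2, 0.685 with Tapbp, 0.543 with Psmb10 and 0.16 with Psmb9, and Ifitm2 with B2m at -0.864 and with Ifitm3 at 0.607. Among 9865 candidate genes, the group means most like those of Psmb8 were those of Vrtn (Pearson r 0.967), Atp10a (0.963), Stag2 (0.955), Enpp2 (0.946) and Slc16a3 (0.937). For Irgm2 they were those of Dtx3l (0.985), a ubiquitin ligase of the interferon response, Bcar3 (0.976), Eaf2 (0.971), Ranbp2 (0.970) and Mcm7 (0.970). For Ifitm3 they were those of Dis3l (0.923), 0610009B22Rik (0.903), and Mpi, 1810009A15Rik and scl0002368.1_75 (0.901 each).

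The lines differed before LIF removal. At day 0, 2 of the 9 genes were higher and 3 lower in PL2F8 than in AB2.2, where 27.5% of all genes were called. Ifitm3 was lower by 1.42 ± 0.08 (adjusted p = 2.2e-07), with the PL2F8 arrays at 10.47 and 10.35 and those of AB2.2 at 11.79 and 11.87. Psmb8 was at least 1.43-fold lower, B2m was 0.53 ± 0.10 higher (adjusted p = 0.0019), and Psmb10 was 0.41 ± 0.11 lower (adjusted p = 0.013), a call lost when the second day 0 array of either line was left out or under median scaling (-0.29). At day 2 none was higher and 5 were lower in PL2F8 (23.7% of all genes called), and at day 4, 1 was higher and 5 were lower (42%). The difference at day 4 reached -1.70 ± 0.08 for Psmb8 (adjusted p = 8e-09) and -1.30 ± 0.11 for Psmb10 (adjusted p = 9e-07), and Ifitm2 was the gene higher in PL2F8, by 0.87 ± 0.07 (adjusted p = 1.5e-06). At day 6, 1 was higher and 5 were lower (64.9%), but the higher one, Ifitm2 at 0.38 ± 0.07, became -1.61 under median scaling. At day 8, 2 were higher and 3 lower (69.7%). Of the lower ones, Psmb8 and Irgm2 were not detected on the PL2F8 array, whose lowest detected level of 6.89 lay above their AB2.2 levels of 6.48 and 6.31, so those calls show no difference. The higher ones, Psmb9 at 1.96 and Psmb10 at 1.09, became -1.48 and -3.16 under median scaling. For all genes the same scaling moved the split at day 0, where 14.4% higher and 13.1% lower became 21.6% and 7.08%, and those of days 4, 6 and 8, where 21.4% higher and 20.6% lower became 10.6% and 44.1%, 30.7% higher and 34.1% lower became 5.12% and 72%, and 30.5% higher and 39.2% lower became 0.709% and 74.2%.

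The change from day 0 itself differed between the lines at some day for 8 of the 9 genes (moderated F test over days 2 to 8), beside 80.7% of all genes. Tap1 was the gene without a call (adjusted p = 0.35). At day 2, before the dim arrays, 3 of the 9 genes differed in their change, beside 10.1% of all genes. Written as the change in PL2F8 minus that in AB2.2, the difference for B2m was -1.43 ± 0.14 (adjusted p = 8.8e-05). Irgm2 stood at -0.78 ± 0.15 (adjusted p = 0.0058) and Ifitm3 at 0.95 ± 0.11 (adjusted p = 0.00031). For Psmb10 the difference at day 2 was -0.06 ± 0.15, with a 95% interval from -0.38 to 0.27. At day 4, 7 of the 9 differed (29.9% of all genes), among them Psmb10 at -0.90 ± 0.15 and Ifitm3 at 1.35 ± 0.11 (adjusted p = 0.00073 and 3.9e-06). Ifitm2 stood at 1.03 ± 0.11, and at 0.54 under median scaling. The counts of days 4 and 6 include Psmb8, whose PL2F8 day 0 arrays did not detect it, so that its change in PL2F8 is a lower bound and a smaller rise there is not shown. At day 6, 6 of the 9 differed (55.5%), among them Irgm2, which neither PL2F8 array of that day detected, and the positive values of Ifitm2 (0.54) and Ifitm3 (0.60) became -1.48 and -1.65 under median scaling. Of all genes, 4.12% higher and 6% lower became 2.39% and 7.66% at day 2, 14.8% higher and 15.1% lower became 5.97% and 44.1% at day 4 and 25.5% higher and 29.9% lower became 3.76% and 72.2% at day 6.

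Averaged over both lines, 6 of the 9 genes rose and 2 fell at day 2 (45.6% of all genes called), 7 rose and 2 fell at day 4 (60.4%), 5 rose and 4 fell at day 6 (67.9%) and 3 rose and 4 fell at day 8 (70%). Between consecutive days, 3 rose and 5 fell from day 2 to day 4 (50.5% of all genes called and 27.7% higher), 1 rose and 6 fell from day 4 to day 6 (48.9%), and 3 rose and 5 fell from day 6 to day 8 (58.3%). Some averages join opposite directions, as for B2m at day 2, which changed by 0.39 in AB2.2 and -1.04 in PL2F8. Irgm2, among the genes that fell at day 6, rose by 0.82 in AB2.2 and was not detected in PL2F8. The day 8 calls include Psmb8, Tapbp and Irgm2, which the PL2F8 array of that day did not detect. The averages of days 6 and 8 and the intervals from day 4 to day 6 and from day 6 to day 8 include the dim PL2F8 arrays. Under median scaling 4 of the 9 rose and 5 fell at day 6, with Psmb9 turning from 0.24 to -0.37. At day 8, 1 rose and 7 fell, with Psmb9 turning from 0.25 to -1.41, Psmb10 from 0.16 to -1.87 and B2m from 1.21 to -0.92. From day 4 to day 6, 1 rose and 7 fell, with Tapbp turning from 0.25 to -0.01. From day 6 to day 8 none rose and all 9 fell, with Psmb10 turning from 0.39 to -0.83, Ifitm2 from 0.33 to -0.88 and Ifitm3 from 0.57 to -0.62. Under median scaling the all-gene split of these averages moved too, as 22.2% higher and 23.3% lower became 15.2% and 33.1% at day 2, 32.2% higher and 28.2% lower became 25% and 36.9% at day 4, 34% higher and 34% lower became 16.6% and 57.4% at day 6 and 32.5% higher and 37.5% lower became 7.43% and 66.5% at day 8. From day 4 to day 6 22.9% higher and 26% lower became 7.06% and 57.9%, and from day 6 to day 8 25.3% higher and 33% lower became 3% and 58.7%.

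Genes of interferon signalling moved in both directions. Of 16 measured signalling genes, 2 rose and 7 fell at day 2 in AB2.2, beside 17.5% of all genes higher and 17.3% lower. In PL2F8, 2 rose and 5 fell, beside 17.5% and 19%, and under median scaling 2 rose and 9 fell. Irf1, a transcription factor that drives Psmb9, Tap1 and other MHC class I pathway genes, was singled out after its values were seen. Its mean level was 9.59 at day 0, 11.33 at day 2, 11.29 at day 4, 10.61 at day 6 and 9.78 at day 8 in AB2.2, and 8.99, 11.33, 10.12, 9.11 and 9.07 in PL2F8. It rose by 1.74 ± 0.09 at day 2 in AB2.2 and by 2.35 ± 0.09 in PL2F8 (adjusted p = 2.1e-08 and 1.8e-09), and by 1.7 ± 0.09 and 1.13 ± 0.09 at day 4. Socs3, a feedback inhibitor that LIF induces through STAT3, fell at day 2 in both lines (-4.15 ± 0.10 in AB2.2 and -4.22 ± 0.10 in PL2F8). Irf2, a relative of Irf1, fell by 0.70 ± 0.13 at day 2 and rose by 2.29 ± 0.13 at day 6 in AB2.2. Of 7 measured ligand and receptor genes, 1 rose and 1 fell at day 2 in AB2.2, and the interferon gamma receptor chain Ifngr2 rose by 0.67 ± 0.12 in AB2.2 and 0.72 ± 0.12 in PL2F8. Of 23 measured antiviral interferon-stimulated genes, 6 rose and 3 fell at day 2 in AB2.2, with a median change of 0.13 beside 0 for all genes. At day 6, 12 rose and 5 fell in AB2.2, beside 28.5% of all genes higher and 26.6% lower, with Ifi27 at least 6.53-fold higher, the RNA sensor Ddx58 (RIG-I) lower by 1.19 ± 0.09 and the oligoadenylate synthetase Oas2 at least 2.08-fold lower.

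Markers of other cell types were measured beside the 9 genes. Of 9 leukocyte markers 5 passed the detection filter, and Ptprc, Itgam, Adgre1 and Cd48 did not. The summed signal of the 5 went in AB2.2 from between 3080 and 3160 at day 0 to between 1010 and 1040 at day 2 and 734 and 791 at day 6. In PL2F8 it went from between 4140 and 4340 to between 1450 and 1530 at day 2 and, on the dim arrays, 2240 and 2360 at day 6. The summed signal of 6 visceral endoderm markers went in AB2.2 from between 285 and 324 at day 0 to between 1970 and 2070 at day 2 and between 21300 and 21500 at day 6. In PL2F8 the same sum went from between 93.3 and 95.1 to 153 at day 2 and between 864 and 1100 at day 6. That of the feeder fibroblast markers, of which 11 of 15 passed and Col1a2, Col3a1, Postn and Lum did not, lay between 2260 and 2360 at day 0, 1880 and 1900 at day 2 and 3080 and 3090 at day 6 in AB2.2. In PL2F8 the feeder sum lay between 2940 and 3000 at day 0, 2060 and 2130 at day 2 and, on the dim arrays, 4390 and 4720 at day 6. Endothelial markers summed to between 275 and 277 at day 0, between 122 and 136 at day 6 and 452 on the day 8 array in AB2.2. Of these 5 markers, 2 were detected on both AB2.2 arrays at each of days 0 and 6. In PL2F8 they summed to between 429 and 453 at day 0 and, on the dim arrays, between 186 and 239 at day 6 and 388 at day 8. The part of these cell types in the changes of the 9 genes was not tested.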

How the data were processed

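RNA from AB2.2 and PL2F8 cells was measured on 18 Illumina bead arrays. The deposited probe table holds intensity (mean bead signal per probe) and a detection p-value, per the file headers; the deposited matrix holds intensities whose arrays share nearly the same quantiles. The software that made either is not given in the sources used here. Of 45281 probe lines, 445 (0.983%) were shifted and not used. Probes were named by matching their normalized signals to the matrix lines within a log2 distance of 0.03 (30469 of 30848 lines matched). Background was corrected with normexp from the detection p-values (offset 16), followed by quantile normalization. Probes detected at p below 0.05 on at least 2 arrays were kept (23879), with the brightest probe for each of 16077 genes.

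limma 3.58.1 (R 4.3.3) fitted 1 mean per line and day with 8 residual degrees of freedom, moderated tests and Benjamini-Hochberg adjustment over all genes. Each day 8 group has 1 array, whose spread is assumed to be that of the other groups. "At least" folds use the lowest detected signal per array as a floor. The genes and lists were chosen with earlier results of these data known. The named genes are the 9 and, from each list, up to 4 with the smallest p at day 6 averaged over lines; exceptions are stated. For likeness, the 5 genes with the highest Pearson r over the 10 means were taken. Same-numbered arrays did not deviate together across genes (r between -0.0262 and 0.0431 over 28 pairs), and the arrays were not treated as paired. These correlations cannot show whether same-numbered arrays share a culture. The fit was tested on simulated data. 1 gene of the signalling list is not reported by name here.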

Additional observations from a re-analysis of the deposited data

Results flagged for a closer look

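The change from day 0 differed between the lines in 16 cases, by the test of the difference itself (limma interaction term, adjusted over all genes). Values are the log2 change in PL2F8 minus that in AB2.2. At day 2 the value was -1.43 for B2m, -0.78 for Irgm2 and 0.95 for Ifitm3. At day 4 it was -0.95 for Psmb8, -0.90 for Psmb10, -0.88 for Tapbp, -1.34 for B2m, -1.44 for Irgm2, 1.03 for Ifitm2 and 1.35 for Ifitm3. Neither PL2F8 day 0 array detected Psmb8, so its values here and at day 6 do not show a smaller rise in PL2F8. The Tapbp value at day 4 was -0.33 in the authors' matrix (adjusted p = 0.057). At day 6, on the dim PL2F8 arrays, it was -1.28 for Psmb8, -0.58 for Psmb10, -1.36 for B2m, -3.30 for Irgm2, 0.54 for Ifitm2 and 0.60 for Ifitm3. Neither PL2F8 day 6 array detected Irgm2, so the size of its value is not measured. Of these, the Ifitm2 and Ifitm3 values became -1.48 and -1.65 under median scaling. No group held enough arrays to look for a single array apart from the rest.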

How the results depend on the processing

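The number of the 9 genes called moved by over 1.5 times in few cases. For PL2F8 day 4 against day 0 it was 5, but 8 under median scaling and 3 to 5 when 1 array was left out, with 3 without PL2F8 day 0 replicate 2. For PL2F8 against AB2.2 at day 8 it went from 5 to 8 under median scaling, and for the day 2 difference between lines from 3 to 5 with an offset of 50. Median scaling turned Psmb9 in PL2F8 at day 6 (-1.36) and day 8 (-2.18) and between lines at day 0 (0.06); Psmb10 in PL2F8 at day 4 (-0.46) and day 8 (-3.31); Tapbp in PL2F8 at day 6 (-0.57); B2m in PL2F8 at days 4, 6 and 8 (-0.54, -1.08 and -3.86); Irgm2 in AB2.2 at day 8 (0.04) and PL2F8 at day 4 (-0.11); Ifitm2 between lines at day 6 (-1.61) and its difference in change (-1.48); and Ifitm3 in PL2F8 at day 4 (-0.39) and its difference in change at day 6 (-1.65). It also turned, in AB2.2 at day 6, Psme2 (0.15), Psmg3 (0.11) and Rfxap (0.28). The cause was not tested. Averaging all kept probes turned Psmb8 in PL2F8 at day 8 (-0.01), Tapbp at day 8 in AB2.2 (0.04) and PL2F8 (0.70) and between lines at day 0 (-0.02), and at day 6 in AB2.2 Psme4 (-0.05), Mr1 (0.03) and Ifna1 (0.04). The authors' matrix turned Psmb8 in PL2F8 at day 8 (-0.03), Tapbp at day 8 in AB2.2 (0.03) and PL2F8 (0.62), and Ifna1 (0.04). Leaving out 1 array turned values that were not called, which then ranged from -0.19 to 0.06 for the Psmb9 difference in change at day 4 and from -0.15 to 0.09 at day 6, from -0.03 to 0.15 for Psmb10 in AB2.2 at day 6, from -0.06 to 0.19 in PL2F8 at day 4 and from -0.18 to 0.07 for its difference in change at day 2. For Tap1 between lines they ranged from -0.04 to 0.25 at day 0, -0.17 to 0.07 at day 4 and -0.84 to 0.04 at day 6, where -0.84 (without PL2F8 day 6 replicate 1) was called. In PL2F8 they ranged from -0.11 to 0.11 for B2m at day 4, -0.05 to 0.02 for Ifitm2 at day 2 and -0.07 to 0.06 for Ifitm3 at day 8, and in AB2.2 at day 6 from -0.11 to 0.04 for Rfxap, -0.16 to 0.16 for Ifngr2, -0.18 to 0.03 for Ifna1 and -0.14 to 0.18 for Ifitm5.

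Of 180 results, 133 kept direction and call under median scaling, 167 with averaged probes, 170 in the authors' matrix, 176 with an offset of 50, 178 with no background correction and 178 with no filter on dim probes. With the replicate number as a block 178 did, and Psmb9 in PL2F8 at day 6 (0.23, adjusted p = 0.05) was newly called. Of 2880 results with 1 array left out, 2811 did. The dim PL2F8 arrays of days 6 and 8 limit what can be measured there.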
